A study of Mus musculus with 7 samples.

Results

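The 10 genes described here are the receptors for glucocorticoid hormone and a group of genes that the hormone is known to induce. The receptors are Nr3c1, the glucocorticoid receptor, and Nr3c2, the mineralocorticoid receptor. The response genes are Fkbp5, Sgk1, Tsc22d3, Zbtb16, Mt1, Mt2, Ddit4 and Cdkn1a. They were chosen by gene name from the deposited table, which holds 49164 genes with counts, and all 10 were among the 20420 genes tested between the sexes.

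Bulk RNA-seq had been made from the medial amygdala of 4 male and 3 female Trap-Ai9 mice. Trap-Ai9 mice, called TRAP2-Ai9 in the series' design text, carry a tamoxifen-dependent Cre recombinase driven by Fos and a Cre-dependent red reporter, so that cells active around the injection stay marked. Males received tamoxifen at postnatal day 24 and females at 6 weeks per the sample labels, and all were sacrificed at 2 months. The series' design text gives day 24 and does not set the females apart. If the sample labels hold, sex and the age at tamoxifen cannot be told apart. Pieces of both hemispheres that held the area named DIMPLE, a name not spelled out in the labels, were dissected from slices. The DIMPLE took up between 18% and 40% of a male piece and between 20% and 25% of a female piece. The deposited columns name male libraries 3 and 4 "mb" and male libraries 1 and 2 "mv", stems that the labels do not explain, and name the female libraries "f". One library was made per animal, and no untreated or stressed group was part of the design, and no hormone measurement was used here.

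Corticosterone, the main glucocorticoid of mice, enters cells and binds both receptors, which are held ready by chaperones of the Hsp90 complex. The mineralocorticoid receptor binds the hormone more tightly and is largely occupied at resting levels, whereas the glucocorticoid receptor fills during stress and at the daily hormone peak. The bound receptor enters the nucleus and binds response elements in DNA, near which target genes are switched on. One target, Fkbp5, encodes a co-chaperone that lowers the receptor's affinity for the hormone, which makes a short feedback loop. Both receptors are present in the amygdala.

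Total counts per library ran from 29049604 in male 1 to 46494588 in male 3, and the lowest count of any of the 10 genes in any library was 133, for Cdkn1a in female 2. Counting error was therefore small beside the spread between animals. The 12 medial amygdala marker genes were all detected, with a summed level of 1090 to 1660 CPM in males and 1320 to 1780 CPM in females. Estimates of several cell type marker lists leaned one way between the sexes. edgeR called none of their genes. DESeq2, which called 0.644% of all genes, called 4 of them, all pallial glutamatergic markers. All 12 medial amygdala markers had a log2 male over female below 0, with a median of -0.47, as did 7 of 8 markers of GABAergic neurons, with a median of -0.45. All 12 oligodendrocyte markers had one above 0, with a median of 0.78, as did 8 of 9 markers of pallial glutamatergic neurons, with a median of 1.64. At an unadjusted edgeR p under 0.05 these 4 lists held 1, 3, 6 and 6 genes in the order given. Of all genes, 4.71% had such a p, and 52.3% had a log2 male over female above 0. The part of these shifts in the differences between the sexes given below was not tested. CPM are counts divided by library size on a per-million scale after scaling by the trimmed mean of M-values. Male 3 stood apart in 8 genes of choroid plexus and ependyma, which summed to 14800 CPM there and to 77.3 to 208 CPM in the other males and 83.6 to 458 CPM in females. Male 4 stood apart in 16 immediate early genes, which neurons switch on when active and which summed to 645 CPM there, against 245 to 292 CPM in the other males and 220 to 345 CPM in females. In bulk tissue, fewer cells of a type and less RNA per cell cannot be told apart.

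Promoter sequences of 8 of the 10 genes were searched (RefSeq, build GRCm38.p6, 250 bases before to 50 bases after a gene's start, 16 windows). Those of Nr3c1 and Zbtb16 were not among the windows used, so nothing is said of their promoters. The sequences of Sgk1, Mt1 and Mt2 are shown because Sgk1 had one of the widest ranges among the libraries and the metallothioneins were the closest pair of the 10. Of the Sgk1 windows, that with a full response element was chosen. Capitals mark matches to a glucocorticoid response element (AGAACA and TGTTCT with any 3 bases between), to a looser form of it (GNACA and TGTNC with any 3 bases between), or to the cores TGCACNC and TGCGCNC of the metal response element, through which zinc induces metallothioneins. Both strands were searched. The windows lie at chr10:21993640-21993939 for Sgk1, chr8:94178839-94179138 for Mt1 and chr8:94172368-94172667 for Mt2, all on the plus strand.
Sgk1: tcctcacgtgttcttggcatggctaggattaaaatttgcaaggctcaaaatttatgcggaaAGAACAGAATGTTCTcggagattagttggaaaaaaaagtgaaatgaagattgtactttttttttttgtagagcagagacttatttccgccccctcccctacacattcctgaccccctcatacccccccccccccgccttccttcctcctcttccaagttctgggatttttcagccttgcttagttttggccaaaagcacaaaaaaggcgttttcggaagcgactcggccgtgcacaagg
Mt1: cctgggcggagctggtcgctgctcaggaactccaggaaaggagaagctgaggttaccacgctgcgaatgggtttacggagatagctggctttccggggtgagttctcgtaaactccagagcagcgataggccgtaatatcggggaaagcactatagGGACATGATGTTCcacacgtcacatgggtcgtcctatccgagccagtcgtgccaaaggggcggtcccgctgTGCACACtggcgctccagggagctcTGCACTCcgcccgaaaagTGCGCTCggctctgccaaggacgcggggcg
Mt2: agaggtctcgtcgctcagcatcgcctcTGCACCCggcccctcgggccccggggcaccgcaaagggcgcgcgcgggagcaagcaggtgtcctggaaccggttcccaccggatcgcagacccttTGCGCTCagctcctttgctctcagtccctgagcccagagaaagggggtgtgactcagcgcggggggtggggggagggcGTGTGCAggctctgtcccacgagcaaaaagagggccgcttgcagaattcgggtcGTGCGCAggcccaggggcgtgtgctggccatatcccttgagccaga
In this Sgk1 window the letters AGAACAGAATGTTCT stand from -189 to -175 relative to the start, and the looser form lies inside them. RefSeq lists 6 starts for Sgk1, and the element begins 965 bases before the last of them. The full element was found in 3 of 32851 windows of this length, or 0.00913%, and the looser form in 156, or 0.475%. The Sgk1 window was chosen for its match, so these shares are no test of it. The Mt1 window holds the looser form as GGACATGATGTTC from -94 to -82. It also holds metal cores at -23, at 3 and at 21, counted from the start. The Mt2 window holds 4 metal cores and no match to either response element. No window of Nr3c2, Fkbp5, Tsc22d3, Ddit4 or Cdkn1a held either response element, nor did the other Sgk1 windows. The cores are common, being present in 12.6% (TGCACNC) and 15.4% (TGCGCNC) of the 32851 windows. A match describes letters and is not a measured binding site.

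**Figure D1:**
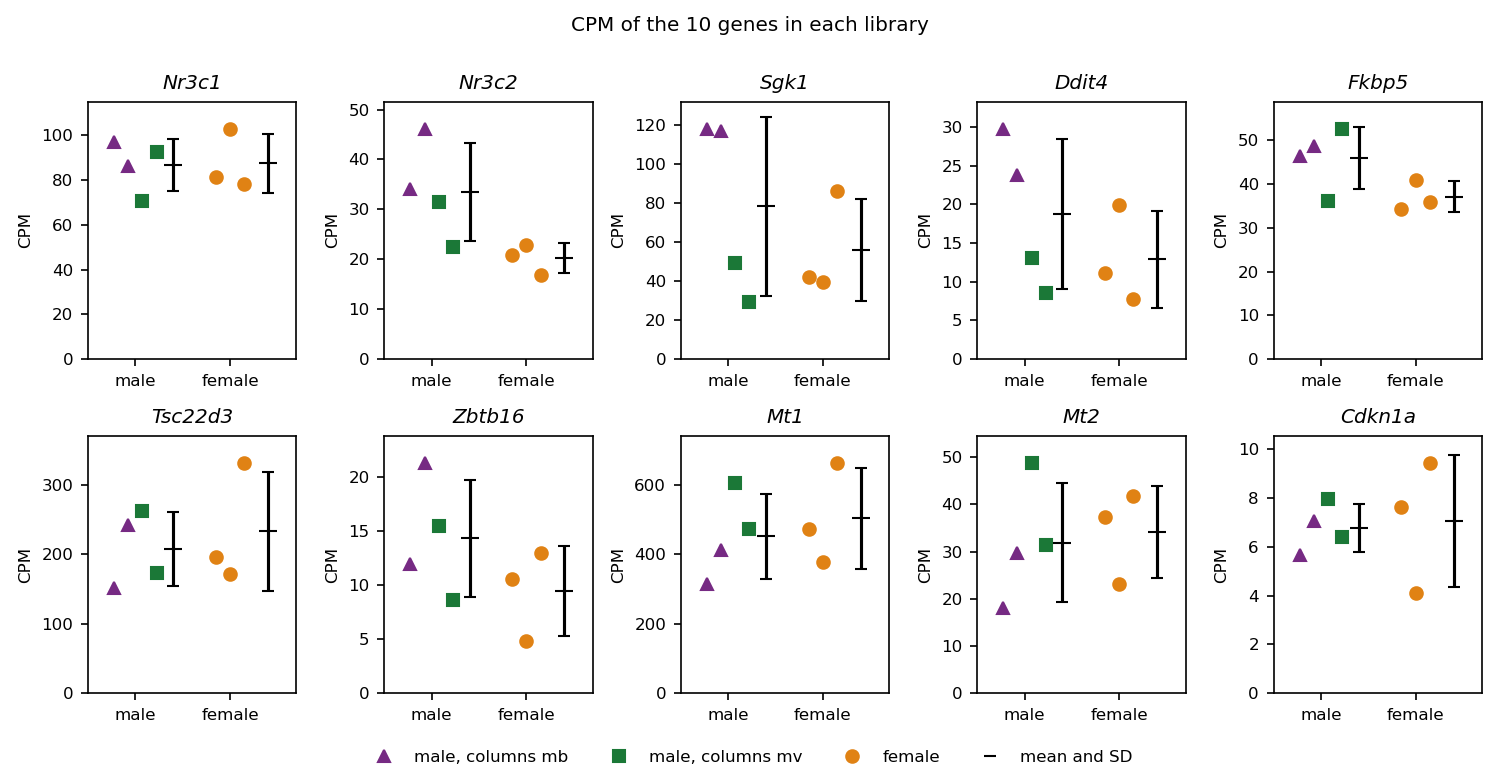
CPM of the 10 genes in each library, with males on the left of each panel (purple triangles mb, green squares mv) and females on the right (orange circles), and the mean and SD of each sex in black. The sexes overlap in every panel, while both mb points lie above every other point for Sgk1 and Ddit4.

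The 10 genes differed widely in level. Per kilobase of exon, Mt1, which encodes a small protein that binds zinc and copper, averaged 380 ± 98.9 CPM per kb over the 7 libraries (SD, as for all values here). Mt2 averaged 55.9 ± 18.1 CPM per kb, and Tsc22d3 averaged 50.3 ± 14.7 CPM per kb. These were the 3 most abundant transcripts of the group. Sgk1 (14.0 ± 7.69 CPM per kb), Nr3c1 (11.3 ± 1.47 CPM per kb) and Ddit4 (9.26 ± 4.76 CPM per kb) formed a middle tier. Fkbp5 followed with 4.44 ± 0.755 CPM per kb and Nr3c2 with 4.30 ± 1.55 CPM per kb. The lowest levels were those of Zbtb16, at 2.32 ± 0.985 CPM per kb, and Cdkn1a, at 1.93 ± 0.480 CPM per kb. Between neighbours in this order the ranges over the libraries were separate only from Mt1 to Mt2 and from Tsc22d3 to Sgk1. All other neighbours overlapped. The lengths merge all annotated exons. For Mt1 they make 1246 bp, as long as the whole gene, and for Mt2 588 bp. Lengths of the transcripts present were not measured, and the levels and order between genes depend on them.

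Nr3c1 encodes the glucocorticoid receptor (ENSMUSG00000024431, chromosome 18, 39543598 to 39652474 in GRCm39, the build of all gene positions given here). It was the steadiest of the 10 genes. Nr3c1 had 97.1 and 86.2 CPM in mb males 3 and 4, 70.6 and 92.6 CPM in mv males 1 and 2, and 81.2, 102.8 and 78.4 CPM in females 1 to 3. The highest library exceeded the lowest 1.46-fold, and the sexes overlapped throughout. The mean in males was 86.6 ± 11.6 CPM and that in females 87.5 ± 13.4 CPM (SD, n = 4 and 3), and the log2 male over female was -0.01 ± 0.17 (SE). The transcript thus differed between the sexes by less than the spread between animals.

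Nr3c2 encodes the mineralocorticoid receptor (ENSMUSG00000031618, chromosome 8, 77626070 to 77971641). Males 3 and 4 (mb) had 34.0 and 46.1 CPM of Nr3c2, males 1 and 2 (mv) had 31.45 and 22.5 CPM, and females 1, 2 and 3 had 21.0, 22.8 and 16.9 CPM. Males 1, 3 and 4 were above all females, and male 2 lay within the female range, just under female 2. Males averaged 33.5 ± 9.73 CPM, against 20.2 ± 3.06 CPM in females (SD, n = 4 and 3). The log2 male over female was 0.73 ± 0.24 (SE), which did not pass the threshold (edgeR adjusted p = 0.835, unadjusted p = 0.0138). Within the column stems the log2 estimate was 0.99 for mb males over females and 0.41 for mv males over females. Leaving out 1 library at a time gave 0.54 to 0.88. The authors' deposited table, whose fold changes run female over male, lists Nr3c2 at -0.73 ± 0.28 with an adjusted p of 0.595.

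The receptors' balance followed Nr3c2. The ratio of Nr3c2 to Nr3c1 counts, not corrected for length, was 0.350 and 0.534 in mb males 3 and 4, 0.446 and 0.243 in mv males 1 and 2, and 0.258, 0.222 and 0.215 in females. Again male 2 alone among the males lay inside the female range. Markers of pallial glutamatergic neurons, a class of cortical and hippocampal cells, were likewise highest in male 4. They summed to 1520 and 2580 CPM in mb males 3 and 4, 1720 and 1280 CPM in mv males 1 and 2, and 936 to 983 CPM in females. Hippocampal neuron markers summed to 268 and 264 CPM in mb males and 224 and 240 CPM in mv males. Females had 183 to 289 CPM, so the sexes overlapped in this list. No gene of either list is at 0 in all libraries, and the part of either list in the Nr3c2 levels was not tested.

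Sgk1 and Ddit4 varied most visibly with the column stems of the male libraries. Sgk1 encodes a kinase that keeps sodium channels and transporters at the cell surface and is a classical target of both receptors (ENSMUSG00000019970, chromosome 10, 21758083 to 21875802). Levels of Sgk1 were 117.9 and 117.2 CPM in mb males 3 and 4, 49.4 and 29.3 CPM in mv males 1 and 2, and 42.3, 39.8 and 86.05 CPM in the females. Both mb males were above all other libraries, female 3 came next, and the 4 remaining libraries lay below female 3. The mb mean was 117.6 CPM and the mv mean 39.35 CPM, a 3.00-fold fitted ratio. The log2 mb over mv was 1.59 ± 0.40 (SE), with an edgeR adjusted p of 0.793 and an unadjusted p of 0.00278, so Sgk1 was not called. DESeq2, which called 0.339% of all genes, called it, with a log2 of 1.61 ± 0.40 and an adjusted p of 0.0258. So did edgeR without a filter on low counts, which called 1.07% of all genes, with an adjusted p of 5.19e-06. limma-voom did not call it (adjusted p = 0.834).

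Ddit4 encodes REDD1, an inhibitor of the growth kinase complex mTORC1 that is induced by glucocorticoids, hypoxia and energy stress (ENSMUSG00000020108, chromosome 10, 59785491 to 59787656). Ddit4 had 29.7 and 23.7 CPM in mb males 3 and 4, 13.0 and 8.53 CPM in mv males 1 and 2, and 11.15, 19.9 and 7.72 CPM in females 1 to 3. The mb males were again the highest, followed by female 2, and female 3 was the lowest. The log2 mb over mv was 1.32 ± 0.42 (SE), a 2.49-fold ratio, with an edgeR adjusted p of 0.793 and an unadjusted p of 0.0113. Among the other tools, only edgeR without the low-count filter called it (adjusted p = 0.00844), while DESeq2 gave an adjusted p of 0.182 and limma-voom 0.834.

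Other signals varied among the male libraries as well, and only some of them were separate between mb and mv. Choroid plexus and ependyma genes were high in male 3 alone among the males, and male 4 had the lowest sum of all libraries. Choroid plexus and ependyma genes summed to 14800 and 77.3 CPM in mb males 3 and 4, 208 and 91.9 CPM in mv males 1 and 2, and 83.6 to 458 CPM in females. Without male 3 the log2 mb over mv was 1.60 for Sgk1 and 1.16 for Ddit4. Without male 4 it was 1.61 for Sgk1 and 1.49 for Ddit4. Oligodendrocyte markers summed to 9410 and 4110 CPM in mb males 3 and 4, 2920 and 3420 CPM in mv males 1 and 2, and 1600 to 3460 CPM in females. Genes of red blood cells summed to 65.2 and 59.5 CPM in mb males, 144 and 167 CPM in mv males and 92.4 to 102 CPM in females. Of the 16 immediate early genes, 14 had a higher estimate in mb libraries, with a median log2 of 0.94. Of the 9 pallial glutamatergic markers, 8 had a higher estimate in mb libraries, with a median log2 of 0.89, and of the 8 GABAergic markers 7 had a lower one, with a median of -0.39. Of all genes, 50.2% had a higher estimate in mb libraries. Pallial sums were 1520 and 2580 CPM in mb males 3 and 4 and 1720 and 1280 CPM in mv males 1 and 2. GABAergic sums were 1160 and 937 CPM in mb males 3 and 4 and 932 and 1630 CPM in mv males 1 and 2. Both lists thus overlapped between mb and mv in their sums. The part of choroid plexus, myelin, blood, neuron classes and neuronal activity in the Sgk1 and Ddit4 levels was not tested.

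**Figure D2:**
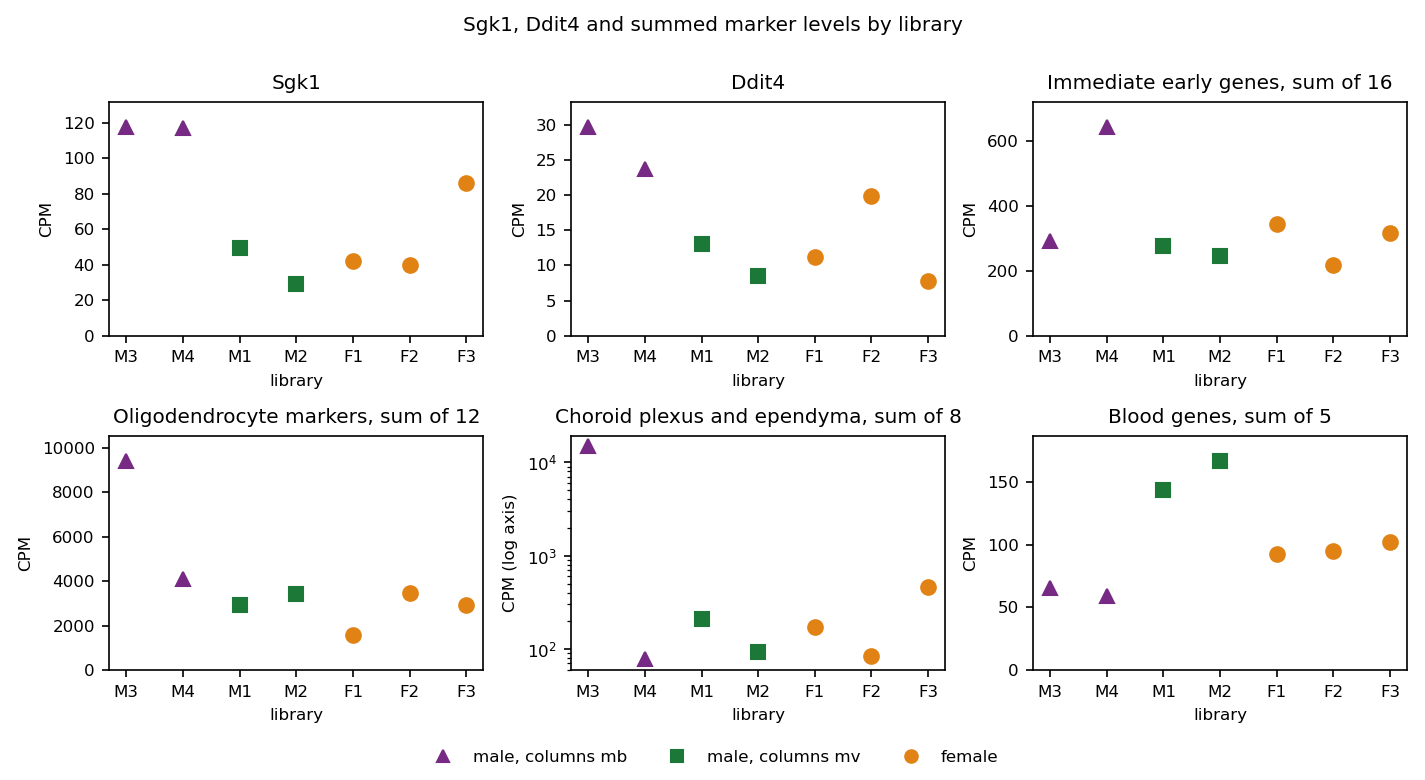
Sgk1, Ddit4 and the summed CPM of 4 gene lists in each library, with mb males first (M3, M4), then mv males (M1, M2) and females (F1 to F3), and a log axis for choroid plexus and ependyma. Sgk1 has 117.9 CPM in M3 and 117.2 CPM in M4. Choroid plexus and ependyma genes reach 14800 CPM in M3, and immediate early genes reach 645 CPM in M4.

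Between the sexes neither gene gave a stable estimate. Sgk1 averaged 78.5 ± 45.9 CPM in males and 56.0 ± 26.0 CPM in females, with a log2 of 0.49 ± 0.48 (SE). The estimate was 1.07 for mb males over females and -0.52 for mv males over females. Ddit4 averaged 18.8 ± 9.69 CPM in males and 12.9 ± 6.26 CPM in females, with a log2 of 0.54 ± 0.44 (SE). It was 1.05 for mb males over females and -0.27 for mv males over females. For both genes the sign therefore depended on which males were compared with the females.

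Fkbp5, the co-chaperone of the feedback loop, is often read as a marker of glucocorticoid receptor activity (ENSMUSG00000024222, chromosome 17, 28618068 to 28736501). Males 3 and 4 (mb) had 46.3 and 48.6 CPM of Fkbp5, males 1 and 2 (mv) had 36.0 and 52.5 CPM, and females 1, 2 and 3 had 34.2, 41.0 and 35.9 CPM. The range was narrow, 1.53-fold from lowest to highest, and male 1 lay among the females. Males averaged 45.9 ± 7.02 CPM and females 37.0 ± 3.52 CPM (SD, n = 4 and 3). The log2 male over female was 0.31 ± 0.17 (SE) with an unadjusted edgeR p of 0.107, and the log2 mb over mv was 0.10 ± 0.24. The mb and mv levels of Fkbp5 overlapped, whereas those of Sgk1 in the same animals did not, and this difference between the genes was not tested.

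Tsc22d3 encodes GILZ, a leucine zipper protein that carries part of the anti-inflammatory action of glucocorticoids (ENSMUSG00000031431, chromosome X, 139440277 to 139501408). Levels of Tsc22d3 were 151.1 and 242.1 CPM in mb males 3 and 4, 262.6 and 174.0 CPM in mv males 1 and 2, and 196.1, 172.5 and 331.0 CPM in the females. Female 3 was the highest and male 3 the lowest, and each sex spanned much of the other's range. The log2 male over female was -0.17 ± 0.27 (SE), and 0.17 without female 3.

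Zbtb16 encodes the zinc finger repressor PLZF, whose induction by glucocorticoids is well known in human tissues (ENSMUSG00000066687, chromosome 9, 48565597 to 48747522). Zbtb16 had 11.9 and 21.3 CPM in mb males 3 and 4, 15.4 and 8.66 CPM in mv males 1 and 2, and 10.6, 4.86 and 13.0 CPM in females 1 to 3. It had the widest range of the 10 genes, 4.38-fold, with male 4 at the top and female 2 at the bottom. Males averaged 14.3 ± 5.39 CPM and females 9.48 ± 4.17 CPM (SD, n = 4 and 3). The log2 male over female was 0.59 ± 0.38 (SE) with an unadjusted edgeR p of 0.149, and it was 0.28 without female 2 and 0.34 without male 4. Both ends of the range thus weighed on the estimate.

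Mt1 and Mt2 are neighbours on chromosome 8 (Mt1, ENSMUSG00000031765, 94905710 to 94906955; Mt2, ENSMUSG00000031762, 94899292 to 94900196), 5514 bp apart. Both are induced by zinc and by glucocorticoids, and in the brain they are strongest in astrocytes. Males 3 and 4 (mb) had 315.4 and 412.2 CPM of Mt1, males 1 and 2 (mv) had 606.7 and 472.9 CPM, and females 1, 2 and 3 had 471.8, 377.7 and 661.7 CPM. Levels of Mt2 were 18.0 and 29.8 CPM in mb males 3 and 4, 48.7 and 31.3 CPM in mv males 1 and 2, and 37.4, 23.2 and 41.7 CPM in the females. Female 3 and male 1 were the highest for both genes and male 3 the lowest for both. Their ratio stayed within 12.5 to 17.5 in males and 12.6 to 16.3 in females, and their profiles differed by a root mean square of 0.17 log2 units, the smallest of any pair among the 10 genes. The authors' counting rules for near-identical sequence are not given in the sources used here, so reads shared by the metallothioneins may be assigned uncertainly.

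Between the sexes the log2 was -0.16 ± 0.26 (SE) for Mt1 and -0.10 ± 0.32 for Mt2. The log2 mb over mv was -0.56 ± 0.30 for Mt1 and -0.74 ± 0.36 for Mt2, with unadjusted edgeR p-values of 0.0883 and 0.0657. Without male 3 these were -0.37 and -0.40, and without male 4 they were -0.75 and -1.13. Mt3, the metallothionein best known from brain, had 350 and 354 CPM in mb males 3 and 4, 510 and 387 CPM in mv males 1 and 2, and 326, 286 and 440 CPM in females. Astrocyte markers summed to 5700 and 5110 CPM in mb males, 4810 and 5890 CPM in mv males and 4090 to 6200 CPM in females, with no separation of mb from mv.

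Cdkn1a encodes the cell cycle inhibitor p21, best known as a target of p53 (ENSMUSG00000023067, chromosome 17, 29309950 to 29319701). Cdkn1a had 5.645 and 7.03 CPM in mb males 3 and 4, 7.93 and 6.38 CPM in mv males 1 and 2, and 7.61, 4.12 and 9.40 CPM in females 1 to 3. The lowest and the highest library were both female. The log2 male over female was -0.06 ± 0.30 (SE), and its sign turned to 0.20 without female 3.

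Counted together, none of the 10 genes was called between the sexes. Across all genes edgeR called 5 of 20420, or 0.0245%, and at an unadjusted p under 0.05 it marked 962 genes, or 4.71%, and 1 of the 10, Nr3c2. DESeq2 called 122 of 18937 genes (0.644%), limma-voom 6 (0.0294%) and edgeR without the low-count filter 12 (0.0299%), and none of the 10 was among them. The estimates of 5 genes were above 0 and of 5 below, with a median log2 of 0.15, against 0.01 over all genes. In no case were male and female ranges separate, against 5.32% of all genes tested.

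**Figure D3:**
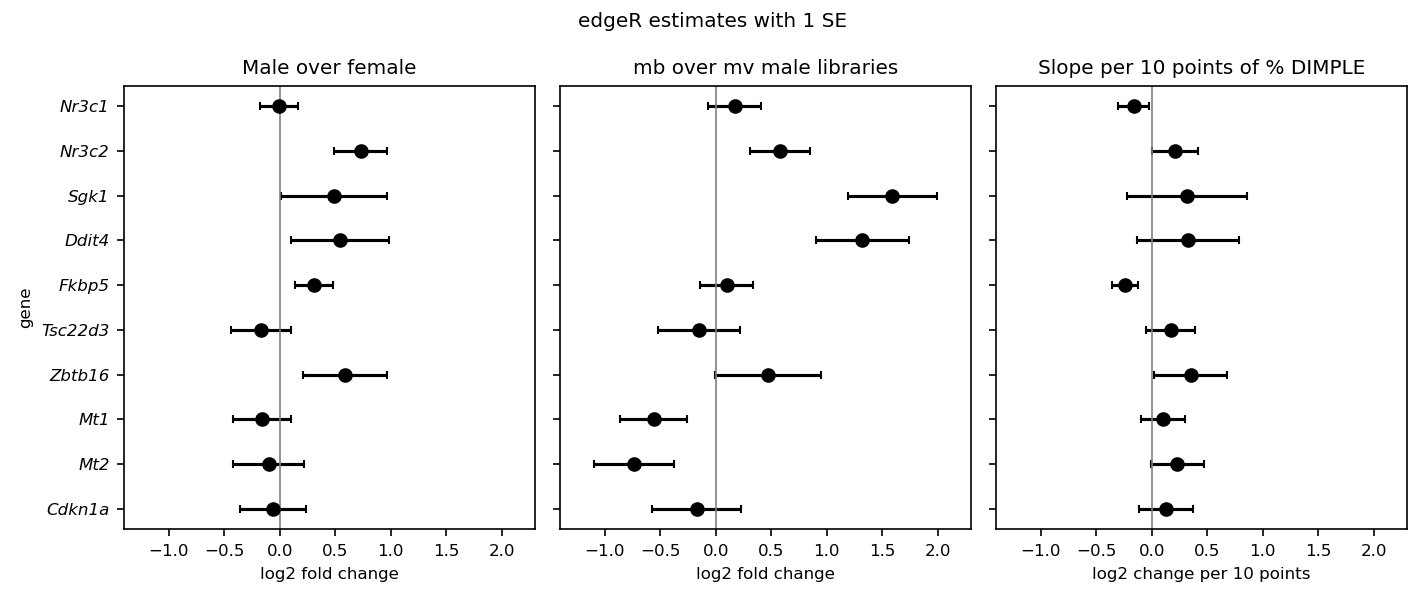
edgeR log2 estimates of the 10 genes with bars of 1 SE, for males over females, mb over mv male libraries, and the slope per 10 points of percent DIMPLE. Sgk1 (1.59 ± 0.40) and Ddit4 (1.32 ± 0.42) lie farthest from 0, both in the middle panel.

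Between mb and mv libraries the ranges were separate for 5 of the 10 genes, against 34.6% of all genes with 2 libraries on each side. Nr3c2, Sgk1 and Ddit4 were higher in mb, which held for 17.8% of all genes, and Mt1 and Mt2 were lower in mb. edgeR called none of 21427 genes (0%), with 1219 (5.69%) at an unadjusted p under 0.05, among them Sgk1 and Ddit4. DESeq2 called 70 of 20649 (0.339%), limma-voom none, and edgeR without the filter called 427 of 40076 (1.07%). The median log2 of the 10 genes was 0.14, against 0.00 over all genes.

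The slope on percent DIMPLE, fitted with sex, asked whether expression followed the share of the labelled area in the piece. None of the 10 genes, and none of all genes tested (0%), was called by edgeR, DESeq2 or limma-voom. edgeR without the low-count filter called 15 of 40076 (0.0374%), with none of the 10 among them. At an unadjusted p under 0.05 edgeR marked 928 genes (4.54%) and none of the 10. Fkbp5 had the lowest p of the 10, at 0.0833, with a log2 of -0.24 ± 0.12 (SE) per 10 points. Sgk1 had a slope of 0.32 ± 0.54, and Ddit4 had one of 0.33 ± 0.46. Without male 2, which had the smallest share of DIMPLE, the slope was -1.24 for Sgk1 and -0.90 for Ddit4.

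The 10 genes did not order the libraries alike. Sgk1 and Ddit4 were highest in male 3, Nr3c2 and Zbtb16 in male 4, Mt2 in male 1, Fkbp5 in male 2, Nr3c1 in female 2, and Tsc22d3, Mt1 and Cdkn1a in female 3. Male 3, with the most Sgk1, had the least Tsc22d3, Mt1 and Mt2. Female 1 was highest in none of them. After Mt1 with Mt2, the closest profiles were Nr3c1 with Fkbp5, at a root mean square difference of 0.18 log2 units, and Tsc22d3 with Mt1, at 0.20. The farthest were Mt2 with Ddit4, at 1.07. Sgk1 and Ddit4, although both high in mb libraries, differed by 0.69. Relative to their means, Ddit4 was lower than Sgk1 in female 3 and higher in female 2. Nr3c1 and Fkbp5 were the genes of smallest range, and a small range by itself makes such differences small.

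**Figure D4:**
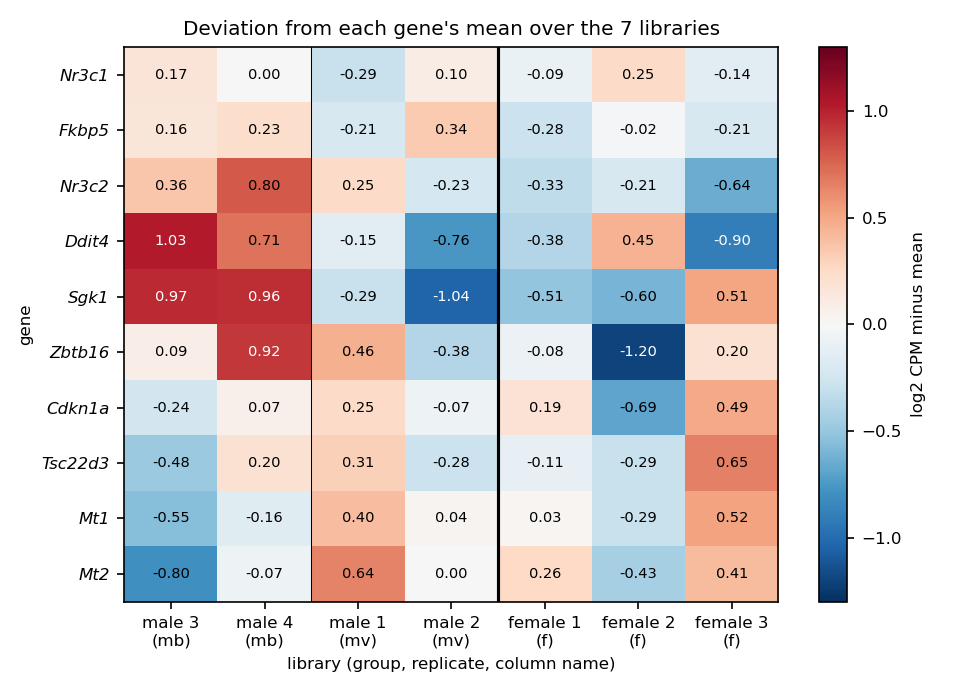
Deviation of each gene's log2 CPM from its mean over the 7 libraries, with mb males in the left columns, then mv males and females. Sgk1 and Ddit4 are above their means in both mb libraries, Mt1 and Mt2 are below theirs in the same 2 libraries, and Nr3c1 and Fkbp5 stay within 0.34 of theirs.

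Among all genes tested, the profiles nearest to that of Sgk1 over the 7 libraries were those of Six4, Ankrd63 and 9330199G10Rik, at 0.17, 0.18 and 0.21 log2 units. The median over all genes was 0.82. Nearest to Ddit4 were Myo5b, Diaph2 and Rapgef5, at 0.22, 0.26 and 0.28, with a median of 0.77. Nearest to Zbtb16 were C2cd4b, Olfr1418 and Aldh1a3, at 0.11, 0.19 and 0.21, with a median of 0.70. C2cd4b, Olfr1418 and Aldh1a3 had mean levels of only 0.343, 0.603 and 1.18 CPM. Among the genes nearest to Sgk1, 9330199G10Rik and Six4 were also low, at 0.349 and 1.54 CPM. These are likenesses over 7 libraries that differ in total counts and in summed cell type markers, taken as the nearest of the 20420 genes tested.

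Other genes of the pathway also gave estimates that did not pass the test. Of the 10 genes, 5 had an estimate above 0 between the sexes and 6 for mb over mv. The further induced genes described next lay mostly above 0 in both comparisons. Of 38 further genes known to be induced by glucocorticoids, 37 were tested and neither edgeR nor DESeq2 called any between the sexes. Their estimates were above 0 for 28 and below 0 for 9, with a median log2 of 0.12, against 52.3% of all genes above 0. At an unadjusted edgeR p under 0.05 there were 2, against 4.71% of all genes. One was Wipf3, with 24.5 ± 10.2 CPM in males, against 12.3 ± 5.23 CPM in females, and a log2 of 0.99 ± 0.37 (SE, edgeR adjusted p = 0.889). Between mb and mv libraries 33 of the 37 had an estimate above 0 and 4 below, with a median of 0.42, against 50.2% of all genes above 0. Neither tool called any, and 6 had an unadjusted edgeR p under 0.05, against 5.69% of all genes. Hif3a, a hypoxia factor in this list, had 4.45 and 4.65 CPM in mb males 3 and 4, 2.41 and 1.68 CPM in mv males 1 and 2, and 4.15, 7.15 and 5.69 CPM in females. Both mb libraries were above both mv libraries and lay at the low end of the female range, and the log2 mb over mv was 1.16 ± 0.39.

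Of 12 genes for the supply and breakdown of glucocorticoids in tissue, 6 were tested. All 6 had a log2 male over female above 0, with a median of 0.48, against 52.3% of all genes above 0. None was called by edgeR or DESeq2, and 2 had an unadjusted edgeR p under 0.05, against 4.71% of all genes. Hsd11b1 encodes the enzyme that regenerates active corticosterone inside cells. It had 30.9 and 43.0 CPM in mb males 3 and 4, 72.1 and 35.7 CPM in mv males 1 and 2, and 29.3, 24.0 and 17.5 CPM in females. Every male library was above every female library. The ranges of the sexes were separate, in either direction, for 5.32% of all genes tested. Pallial glutamatergic markers were separate between the sexes as well, with sums of 1280 to 2580 CPM in males and 936 to 983 CPM in females. Among the males their sum was highest in male 4, and Hsd11b1 was highest in male 1. Endothelial and mural markers were highest in male 1, at 356 CPM, and overlapped between the sexes. The part of either list in the Hsd11b1, Srd5a1, Akr1c14 and Hspa1b levels was not tested. The slope of Hsd11b1 on percent DIMPLE was 0.44 ± 0.19 (SE) per 10 points. Its edgeR p was 0.043 unadjusted and 0.897 adjusted. The means were 45.4 ± 18.4 CPM in males and 23.6 ± 5.92 CPM in females (SD, n = 4 and 3), and the log2 of 0.94 ± 0.31 (SE) did not pass (edgeR adjusted p = 0.820, unadjusted p = 0.0118). Srd5a1, which encodes a steroid reductase, was also separate between the sexes. It had 8.01 ± 1.89 CPM in males, against 5.16 ± 0.416 CPM in females (edgeR adjusted p = 0.952). Akr1c14 of the same list was separate as well. It had 2.33 ± 0.0799 CPM in males, against 1.52 ± 0.288 CPM in females (edgeR unadjusted p = 0.0535).

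All 24 receptor chaperones and coregulators were tested. For males over females 14 had an estimate above 0 and 10 below, with a median log2 of 0.06, against 52.3% of all genes above 0. None was called by edgeR or DESeq2, and 1 had an unadjusted edgeR p under 0.05, against 4.71% of all genes. Hspa1b, a heat shock protein of the Hsp70 class that loads the receptor, had the lowest p. It had 17.9 and 23.1 CPM in mb males 3 and 4, 17.2 and 12.3 CPM in mv males 1 and 2, and 9.89, 9.53 and 10.1 CPM in females, with no overlap of the sexes. Its log2 was 0.84 ± 0.23 (SE, edgeR adjusted p = 0.630). Fkbp4, which opposes Fkbp5 on the receptor, averaged 171 ± 24.6 CPM in males and 197 ± 18.4 CPM in females, with a log2 of -0.20 ± 0.17.

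The lists that bear on single genes of the 10 held no gene called by edgeR or DESeq2 between the sexes or between mb and mv libraries. edgeR without the low-count filter called 2 of the sodium and water transport genes, 1 of the zinc handling genes and 2 of the related family genes between mb and mv. It called 1.07% of all genes there. Without male 4, edgeR with the filter also called genes of the sodium and related family lists there, but that fit leaves 1 mb library. At an unadjusted edgeR p under 0.05, the p53 and growth arrest list and the related family list held 2 genes each in either comparison. The sodium list held 1, Slc12a2, between mb and mv. Of all genes, 4.71% had such a p between the sexes and 5.69% between mb and mv. Of 12 sodium and water transport genes that act downstream of Sgk1 and the mineralocorticoid receptor, 10 were tested, with a median log2 mb over mv of 0.05. Slc12a2, a sodium, potassium and chloride cotransporter, had 172 CPM in male 3 and 32.1 to 57.8 CPM in the other libraries. Male 3 also had the high choroid plexus sum, and the part of that tissue in the Slc12a2 level was not tested. Of 12 tested genes of the integrated stress response, a pathway that also induces Ddit4, the median log2 was 0.13 for males over females and 0.05 for mb over mv. Of 16 tested p53 and growth arrest targets, to which Cdkn1a belongs by function, it was 0.07 for males over females and 0.25 for mb over mv. Of 8 tested metallothionein and zinc handling genes other than Mt1 and Mt2, it was -0.02 for males over females and 0.07 for mb over mv. The 17 related members of the receptors' and targets' families had medians of 0.10 and -0.03 for males over females and for mb over mv.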

How the data were processed

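Bulk RNA-seq of medial amygdala from 4 male and 3 female mice was analysed from 1 deposited table. The build GRCm39 and the tools DESeq2 1.26.0, HTSeq 2.0.1, TopHat2 2.2.1 and cutadapt are named in the submitters' processing notes, while their roles, the strand setting and the annotation release are not given in the sources used here. Without a strand setting, reads of a gene and its antisense partner cannot be told apart. Fkbp5, Nr3c2, Mt2 and Cdkn1a have overlapping genes on the opposite strand, none above 1.30 CPM on average. The table holds raw counts per gene, deposited without normalization per the file headers. It also holds a normalized signal, which is the counts divided by the authors' size factors. The authors also gave log2 fold changes of females over males with standard errors, the deposited Wald statistic (a score) and the deposited p-values. Every sample column was matched to a library, with 0 left over.

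The deposited raw counts passed a low-count filter (filterByExpr, at least 10 counts and 15 in total) and TMM scaling, and all genes left were tested with edgeR 4.0.16 (robust quasi-likelihood) in R 4.3.3 at a Benjamini-Hochberg threshold of 0.05. A positive log2 means higher in males, or in mb libraries. The mb and mv males were contrasted in a fit of the 3 column stems. A model with sex gave the slope per 10 points of percent DIMPLE. Alternatives were DESeq2 1.42.0, limma-voom (limma 3.58.1), RLE scaling, no filter, a threshold of 0.1, percent DIMPLE or the replicate number in the model, mb or mv males only, and leaving out each library. Here "mb males only" and "mv males only" mean that stem against the females in the fit of the 3 stems. No library was removed for these contrasts. The steps were checked on simulated counts. No pair of libraries was a duplicate: within a group, libraries differed with a chi-square of at least 48.7 per degree of freedom. No litters are given, so p-values measure the spread between these animals.

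Levels were divided by merged exon lengths from GENCODE vM21 (GRCm38), matched by Ensembl ID; coordinates are those of the table. Promoters are RefSeq's. Profile likeness is the root mean square difference of log2 CPM (prior count 2) after subtracting each gene's mean; it is given for the 3 genes of the 10 with the largest range. From each of 9 pathway lists, genes past the threshold or else the 3 of lowest p could be named. The 10 genes, these lists and the 10 marker lists were chosen with earlier results of these data known.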

Additional observations from a re-analysis of the deposited data

Results flagged for a closer look

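In male 4 the 16 immediate early genes summed to 645 CPM, far above the other males, which had 245 to 292 CPM. The gap to the nearest male was 0.882 of the range of the 4 males. In male 3 the 8 choroid plexus and ependyma genes summed to 14800 CPM, against 77.3 to 208 CPM in the other males, a gap of 0.991 of the range. Ttr, the most abundant of these 8 genes, had 13600 CPM in male 3 and 8.56 to 25.2 CPM in the other males. Chance sets about 1 in 20 such groups apart, and 33 groups of 4 males were looked at. None of the 10 receptor and response genes stood apart in this way in a single male. The part of either signal in the levels of the 10 genes was not tested.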

How the results depend on the processing

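None of the 10 genes was called between the sexes under any of 16 alternatives, or for the slope under any of 14. For mb over mv libraries, edgeR without the low-count filter called 2 of them and DESeq2 called 1. The number of all genes called between the sexes was 5 in the reported fit, 12 without the low-count filter, 122 with DESeq2, 27 with the replicate block, 28 with mb males only, and 4 to 26 when leaving out 1 library, with 26 without male 2. The causes were not tested.

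Same-numbered male and female libraries had correlations of their deviations of 0.307, 0.169 and 0.0320. Female 1 was most like male 1, but female 2 was most like male 3, at 0.303, and female 3 most like male 1, at 0.276. These values do not settle whether the numbers pair the animals, and the reported fits did not pair them. With the replicate block 0 of the 10 genes were called.

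Some estimates changed sign. Male over female, Nr3c1 was 0.00 without the filter, 0.11 in a model that held percent DIMPLE and 0.07 with mb males only. With mv males only, Sgk1 was -0.52, Ddit4 -0.27, Mt1 0.10, Mt2 0.22 and Cdkn1a 0.02. Leaving out 1 library gave -0.09 to 0.12 for Nr3c1, -0.35 to 0.17 for Tsc22d3, -0.33 to 0.09 for Mt1, -0.37 to 0.09 for Mt2 and -0.33 to 0.20 for Cdkn1a. For the slope with the replicate block, Nr3c1 was 0.08, Tsc22d3 -0.09, Zbtb16 -0.33, Mt1 -0.29, Mt2 -0.39 and Cdkn1a -0.54. Leaving out 1 library gave slopes of -0.33 to 0.53 for Nr3c2, -1.24 to 1.21 for Sgk1, -0.06 to 0.22 for Tsc22d3, -0.14 to 0.61 for Zbtb16, -0.34 to 0.44 for Mt1, -0.29 to 0.73 for Mt2 and -0.90 to 1.06 for Ddit4. For mb over mv it gave -0.13 to 0.43 for Fkbp5, -0.51 to 0.19 for Tsc22d3 and -0.32 to 0.01 for Cdkn1a. Where a stem is left with 1 library, its spread is taken from the others. With 4 and 3 animals, the spread between animals and not depth limits what can be seen.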

Other observations

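The response genes did not keep fixed proportions to each other. The ratio of Sgk1 to Tsc22d3 counts, not corrected for length, was 0.780 and 0.484 in mb males 3 and 4, 0.188 and 0.169 in mv males 1 and 2, and 0.215, 0.231 and 0.260 in females. The mb ratios were above those of all other libraries. The ratio of Sgk1 to Fkbp5 was 2.55 and 2.41 in mb males 3 and 4, 1.37 and 0.559 in mv males 1 and 2, and 1.24, 0.972 and 2.39 in females. Female 3 was almost level with the mb males in this ratio, although its ratio of Sgk1 to Tsc22d3 was like that of the other females. These ratios were read after the levels were known and were not tested.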
